A study of Mus musculus with 4 samples.

Results

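Scavenger receptors are the 10 genes Msr1, Marco, Cd36, Scarb1, Cd68, Mrc1, Stab1, Stab2, Cd163 and Cd5l, followed here in bone marrow after an injection of bacterial endotoxin. They were taken by name from known families with earlier results of these data known, so counts among them are no test of the families. Each had exactly 1 probe set annotated to its symbol alone, so all 10 were measured among 19938 genes. Bone marrow cells came from C57BL/6N mice, an inbred strain, given PBS (phosphate-buffered saline, the vehicle; replicates 1 and 3) or 50 µg LPS (lipopolysaccharide, the endotoxin of Gram-negative bacteria, here equal parts from E. coli K12 and S. minnesota; replicates 1 and 2) into the peritoneum and examined 8 h later. Total RNA of each of the 4 samples was hybridised to its own Affymetrix Mouse Gene 1.0 ST array. The labels used here do not state the age of the mice or whether a sample is 1 mouse or a pool, so the p-values measure the spread between these samples, which may be technical in part.

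Scavenger receptors are surface or secreted proteins that bind modified lipoproteins, microbial polymers, dying cells and worn-out plasma proteins and pass them to the lysosome. The class A receptors carry collagen-like stalks and bind polyanions such as bacterial wall components, the CD36 family handles fatty acids and lipoproteins, the stabilins clear matrix fragments, and the cysteine-rich family includes the receptor for haemoglobin bound to haptoglobin. In bone marrow these genes are known chiefly from resident macrophages, which digest the expelled nuclei of red cell precursors and recycle iron, and from the endothelium of the sinusoids.

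Each probe set has a log2 expression value, so a difference of 1 is a doubling. The median over genes was 8.01 to 8.03 on the 4 arrays. Averaged over each marker list, the level lay between 12.43 and 12.91 for neutrophil genes, between 11.56 and 11.82 for erythroid genes and between 10.17 and 10.74 for B-cell genes, as marrow holds all of these cells. A limma fit held the 4 arrays and all 19938 genes, and a change counted as passed where its p, adjusted by the Benjamini-Hochberg method over these genes, was under 0.05. Of the 10 receptor genes, 2 rose (Msr1 and Marco) and 3 fell (Cd163, Mrc1 and Stab2) after LPS, and 5 did not pass. Among all genes 2.39% rose and 1.27% fell. The changes of the 10 genes ran from -2.41 to 1.74 on the log2 scale with a median of -0.37, against a median of -0.01 over all genes.

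**Figure D1:**
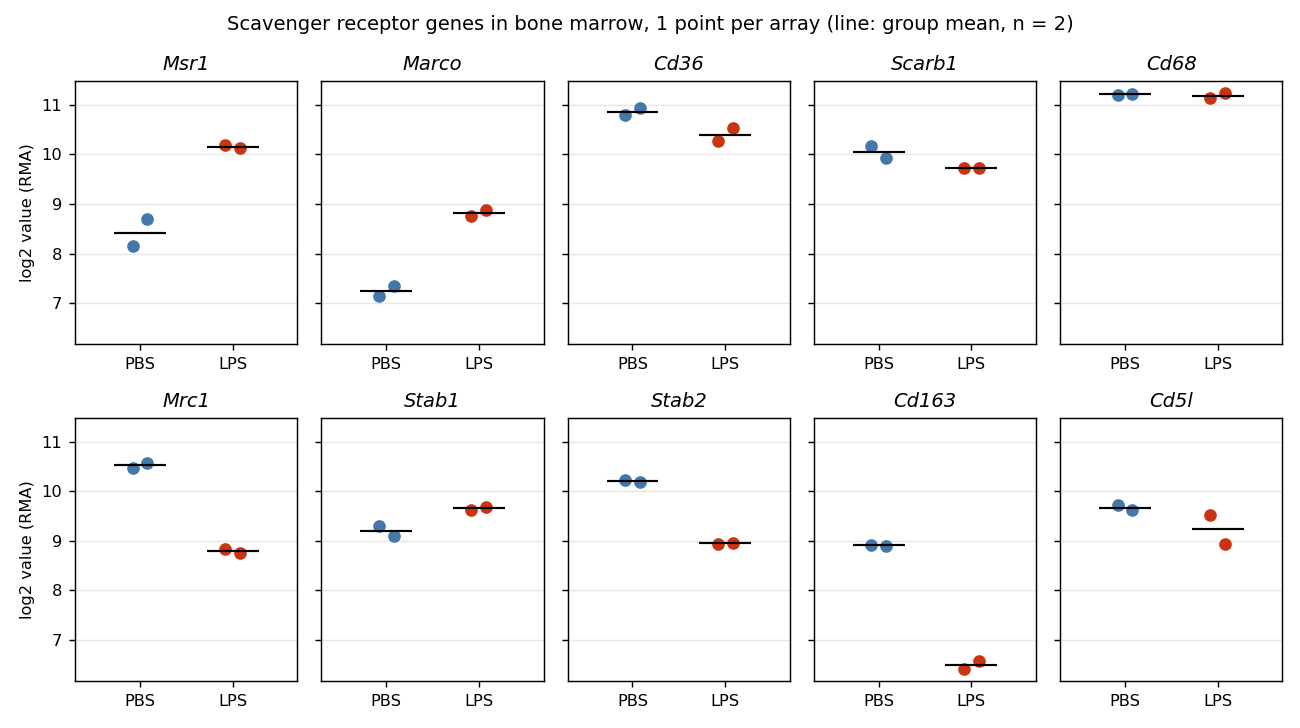
Each panel plots the log2 value of 1 receptor gene (vertical axis, the same scale in all panels) on the 2 PBS arrays (blue) and the 2 LPS arrays (red), with a line at each group mean. Msr1 and Marco are higher on both LPS arrays, Cd163, Mrc1 and Stab2 are lower on both, and the points of Cd68 overlap.

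The largest rise was in the class A receptors, which carry collagen-like stalks and bind bacterial wall components and modified lipoproteins. Msr1, the macrophage scavenger receptor 1, had log2 values of 8.15 in PBS replicate 1 and 8.69 in PBS replicate 3, against 10.18 in LPS replicate 1 and 10.13 in LPS replicate 2; further values follow this order. Both LPS arrays lay well above both PBS arrays, and the PBS arrays differed from each other by 0.54, the widest gap of this gene within a group. The rise was 1.74 log2 (SE 0.164, limma adjusted p = 0.00106), a 3.33-fold difference with a 95% interval of 2.56 to 4.34. Marco, a receptor of the same class known for taking up bacteria, had values of 7.14 and 7.34 with PBS and 8.76 and 8.88 with LPS. The groups did not overlap and the arrays within a group lay within 0.20 of each other. Marco rose by 1.58 log2 (SE 0.104, limma adjusted p = 0.00016), or 2.99-fold (95% interval 2.53 to 3.53). By size of change, Msr1 ranked 60 and Marco 76 among all genes from the largest rise. Bulk RNA does not tell more cells of a type from more RNA per cell, nor fewer cells from less RNA per cell.

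The largest fall was that of Cd163, the macrophage receptor that takes up haemoglobin bound to haptoglobin. Its values were 8.92 and 8.89 with PBS and 6.42 and 6.57 with LPS. The PBS arrays were nearly equal, and both LPS arrays lay far below them and under the lower quartile of genes on their own array (6.66 and 6.72). Cd163 fell 5.33-fold (95% interval 4.58 to 6.21; log2 change -2.41, SE 0.0948, limma adjusted p = 1.91e-05) and ranked 2 among all genes from the largest fall. The files used here hold no background level for a probe set, so the size of a fall that ends this low is less certain than its direction.

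Mrc1 encodes the macrophage mannose receptor, a lectin with many sugar-binding domains that clears glycoproteins and is also made by sinusoidal endothelium. Its values were 10.47 and 10.57 with PBS and 8.83 and 8.76 with LPS, with a clear gap between groups. It fell 3.30-fold (95% interval 2.85 to 3.83; log2 change -1.72, SE 0.0917, limma adjusted p = 5.71e-05) and ranked 6 from the largest fall. Stab2, the stabilin of sinusoidal endothelium that clears hyaluronan, had 10.22 and 10.18 with PBS and 8.93 and 8.96 with LPS. Its widest gap within a group was 0.043, the smallest among the 5 changed receptors. Stab2 fell 2.39-fold (95% interval 2.08 to 2.75; log2 change -1.26, SE 0.0869, limma adjusted p = 0.000206), at rank 15.

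**Figure D2:**
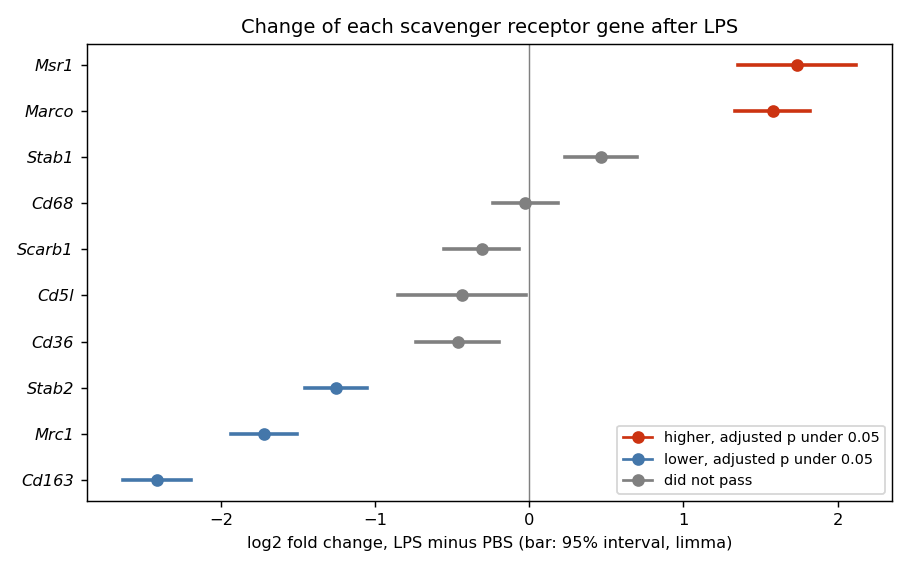
The log2 fold change of each receptor gene (horizontal axis, LPS minus PBS) is drawn with its 95% limma interval, red where it rose, blue where it fell and grey where it did not pass at an adjusted p of 0.05. Msr1 (1.74) and Marco (1.58) lie at one end and Stab2 (-1.26), Mrc1 (-1.72) and Cd163 (-2.41) at the other, with the remaining 5 genes within 0.47 of 0.

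The other stabilin did not pass, and its values went the other way. Stab1, found on macrophages and sinusoidal endothelium and known for the uptake of acetylated lipoproteins, had 9.29 and 9.09 with PBS and 9.62 and 9.69 with LPS. The groups did not overlap, and the change was 0.46 log2 (SE 0.101, 95% interval 0.23 to 0.70) with a limma adjusted p of 0.053. It passed without PBS replicate 1 (log2 change 0.56, adjusted p = 0.0182) and not without any of the other arrays (adjusted p = 0.104 to 0.197). It also passed with an intensity trend and robust eBayes (adjusted p = 0.0458), with genes under the lower quartile left out (0.0451) and with the arrays centred on their medians (0.0472).

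The CD36 family had smaller differences, both negative. Cd36, a fatty acid and oxidised-lipoprotein receptor of macrophages, platelets, endothelium and fat cells, had 10.79 and 10.94 with PBS and 10.27 and 10.53 with LPS. Both LPS arrays were lower, by -0.47 log2 on average (SE 0.115, 95% interval -0.73 to -0.20), with a limma adjusted p of 0.0829. Cd36 passed without PBS replicate 1 (log2 change -0.54, adjusted p = 0.0446) and without LPS replicate 2 (-0.59, adjusted p = 0.0439), but not without PBS replicate 3 (0.133) or LPS replicate 1 (0.34). Scarb1, the receptor for high-density lipoprotein, had 10.16 and 9.93 with PBS and 9.74 on both LPS arrays. Its difference of -0.31 (SE 0.105, 95% interval -0.55 to -0.07, limma adjusted p = 0.198) was little more than the gap of 0.24 between the PBS arrays.

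Since fat cells also make Cd36, adipocyte markers were read beside it. None of 7 passed by limma, 1 having an unadjusted p under 0.05 (15.8% of all genes did in this fit), with a median of 0.13, and the mean level of the list was 8.69 and 8.79 with PBS and 8.38 and 8.90 with LPS. The fat-cell hormone gene Adipoq had 10.39 and 10.76 with PBS and 9.71 and 10.20 with LPS (log2 change -0.62, limma adjusted p = 0.131), and the lipase gene Pnpla2 had a log2 change of 0.17. Like that of Cd36, the negative difference of Adipoq was larger without PBS replicate 1 (-0.81) and without LPS replicate 2 (-0.87). Of the 7 markers, 3 had negative changes, Adipoq, Retn (-0.43) and Plin1 (-0.29). The other 4 had positive changes, Lep (0.19), Pnpla2, Cidec (0.16) and Lipe (0.13). The LPS arrays of Cidec differed by 1.21, and Lep lay under the lower quartile of genes on each array. Platelet genes showed no call either, 0 of 6 by limma with 0 at an unadjusted p under 0.05 and a median of 0.05 (Pf4 0.04 and Ppbp -0.02). The part of either cell type in the values of Cd36 was not tested.

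Cd5l and Cd68 did not pass. Cd5l, a secreted cysteine-rich protein of tissue macrophages that belongs to the same domain family as Cd163, had 9.72 and 9.61 with PBS and 9.53 and 8.93 with LPS. LPS replicate 2 was low while LPS replicate 1 lay close to the PBS arrays, and the gap of 0.60 between the LPS arrays was the widest of any receptor gene within a group. The log2 change was -0.44 (SE 0.178, 95% interval -0.85 to -0.02, limma adjusted p = 0.286). It was -0.74 and passed without LPS replicate 1 (adjusted p = 0.00867), and was -0.14 without LPS replicate 2 (adjusted p = 0.865). Cd68, a lysosomal membrane glycoprotein used as a general marker of macrophages, had 11.21 and 11.22 with PBS and 11.14 and 11.24 with LPS. It was the only receptor gene whose groups overlapped, with a log2 change of -0.03 (95% interval -0.23 to 0.18, limma adjusted p = 0.946). The groups of the other 9 did not overlap, as was so for 44.9% of all genes.

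Receptor genes were also set against each other on the same array, which removes any difference shared by the whole array. Each difference was expressed relative to its mean over the PBS arrays, since levels of different probe sets cannot be compared. Msr1 minus Cd163 stood at -0.29 and 0.29 on PBS replicates 1 and 3 and at 4.25 and 4.05 on the LPS arrays, a shift of 4.15 log2. Msr1 minus Mrc1 shifted by 3.46 and Marco minus Cd163 by 3.99. In these 3 pairs the smallest departure of an LPS array from the PBS mean was 3.45, and the widest of a PBS array was 0.29. Each of the 3 pairs sets a gene that rose against one that fell. Their shifts therefore restate the changes given above and are no separate result.

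Within structural classes, some pairs overlapped between groups and others moved apart. Msr1 and Marco kept nearly the same distance, with Msr1 minus Marco at -0.17 and 0.17 with PBS and 0.24 and 0.07 with LPS, so the groups overlapped and the shift was 0.16. Cd36 minus Scarb1 likewise overlapped (shift -0.16). Stab1 minus Stab2 shifted by 1.72, with 0.08 and -0.08 on the PBS arrays and 1.71 and 1.73 on the LPS arrays. Cd163 minus Cd5l shifted by -1.98, to -2.35 on LPS replicate 1 and -1.60 on LPS replicate 2. Of the 8 pairs compared, 6 had groups that did not overlap. Each of these 6 holds a gene that passed, and a shift is the difference between 2 changes given above. The count of 6 is therefore no separate result, and the share among pairs of all genes was not computed. An exact two-sided permutation test of 2 arrays against 2 gave p = 0.333 for these 6, the smallest value the design allows. The same exact permutation test gave p = 0.667 for Msr1 minus Marco and Cd36 minus Scarb1. No pair can therefore pass a threshold of 0.05 in this design.

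**Figure D3:**
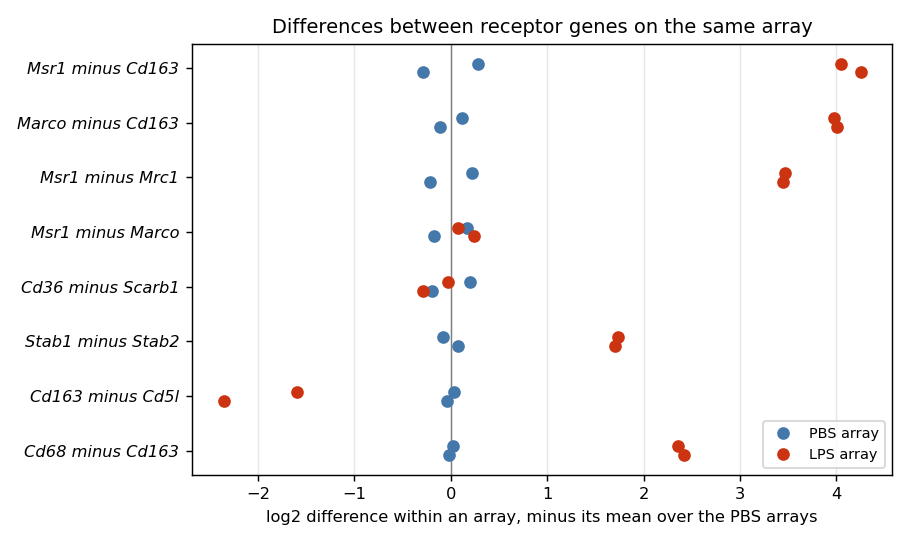
For each pair of receptor genes (rows), points give the log2 difference between them on each array minus its mean over the PBS arrays (horizontal axis), with PBS arrays in blue and LPS arrays in red. Msr1 minus Cd163 reaches 4.25 and 4.05 on the LPS arrays and Stab1 minus Stab2 reaches 1.71 and 1.73, while the points of Msr1 minus Marco and of Cd36 minus Scarb1 overlap.

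Macrophage marker genes did not move together in one direction. Of 13 markers of resident macrophages, 3 rose, 2 fell and 8 did not pass, with a median change of -0.08. Their mean level was 10.05 and 10.02 with PBS and 10.24 and 10.17 with LPS. By limma 7 of the 13 had an unadjusted p under 0.05, against 15.8% of all genes. Cd14, the LPS co-receptor, rose by 1.94, the Fc receptor gene Fcgr1 by 1.57 and Adgre1, a surface antigen widely used to mark macrophages, by 0.56. Vcam1, an adhesion molecule of marrow macrophages and stroma, fell by 0.79 and Mertk, a receptor for dying cells, fell by 0.54. The 8 that did not pass had values of either sign. These were Timd4 (0.35), Csf1r (0.11), C1qb (0.06), Itgam (-0.08), C1qa (-0.17), Axl (-0.17), Siglec1 (-0.26) and C1qc (-0.40, limma adjusted p = 0.051). Adgre1 did not pass without PBS replicate 1 (adjusted p = 0.055), without LPS replicate 1 (0.0912) or with all probe sets in the fit (0.124), nor Mertk without LPS replicate 2 (0.158) or with all probe sets (0.131).

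Markers of sinusoidal endothelium were read beside Stab2. Of 12, none rose and 2 fell, Tek by 0.89 and Flt4 by 0.57, and the median was 0.05. By limma 5 of the 12 had an unadjusted p under 0.05, against 15.8% of all genes. Flt4 did not pass without PBS replicate 1 (adjusted p = 0.0716), without LPS replicate 2 (0.159) or with all probe sets (0.16). The 10 that did not pass had values of either sign, namely Emcn (0.52), Cdh5 (0.36), Robo4 (0.28), Eng (0.12), Pecam1 (0.11), Esam (0.06), Kdr (0.04), Plvap (-0.03), Vwf (-0.07) and Lyve1 (-0.13). The mean level of the list was 9.25 and 9.12 with PBS and 9.17 and 9.16 with LPS, while Stab2 shifted by -1.26. Of the other cell type lists, 1 of 9 monocyte genes rose, Ms4a6c (0.49), which did not pass without PBS replicate 1 (0.0989), LPS replicate 1 (0.162) or LPS replicate 2 (0.0807), or with all probe sets in the fit (0.158). Among 9 dendritic cell genes 1 rose, the interferon-inducible Bst2 (1.60), and 1 fell, the lectin gene Cd209a (-2.02). Neutrophil genes held 2 falls among 10 (Ly6g, -1.14, and Retnlg, -0.76), and B-cell genes 2 falls among 9 (Fcer2a, -1.61, and Cr2, -0.75). T and natural killer genes held 1 rise (Gzma, 1.17) and 1 fall (Klrd1, -0.89) among 9. Counting genes that did not pass, changes were negative for 9 of 10 neutrophil genes (median -0.22) and 9 of 9 B-cell genes (-0.15). They were negative for 7 of 9 dendritic cell genes (-0.24), 7 of 9 T and natural killer genes (-0.15) and 5 of 9 monocyte genes (-0.04). An unadjusted p under 0.05 by limma was reached by 3 monocyte, 6 dendritic cell, 4 neutrophil, 3 B-cell and 3 T and natural killer genes. With all probe sets in the fit, Ly6g (adjusted p = 0.082), Retnlg (0.103), Cr2 (0.0741) and Gzma (0.0656) did not pass. None of 9 erythroid genes passed by limma. Of these, 8 had negative values, 3 with an unadjusted p under 0.05 (Hemgn at -0.36, Klf1 at -0.31 and Epb42 at -0.24), while the 2 brightest did not reach it, Slc4a1 at -0.18 and Car2 at -0.09. The part of cell numbers in the changes of the receptors was not tested.

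Other scavenger receptors held 1 call. Of 18 further receptor genes measured, 1 rose, 0 fell by limma (2 of the 18 had an unadjusted p under 0.05, against 15.8% of all genes) and 17 did not pass, with a median of -0.01. The gene that rose was Cxcl16, a membrane chemokine that is itself a scavenger receptor for oxidised lipoprotein. It had 7.20 and 7.36 with PBS and 8.82 and 8.93 with LPS, a rise of 1.59 log2 (SE 0.0996, limma adjusted p = 0.000116). The other gene with an unadjusted p under 0.05 was Scarf1 (0.22, 95% interval 0.01 to 0.42, limma adjusted p = 0.28). Members that did not pass included the lysosomal CD36 relative Scarb2 (0.08), the large endocytic receptor Lrp1 (0.04), the class A relatives Scara3 (-0.09) and Colec12 (0.13), the oxidised lipoprotein receptor Olr1 (-0.35, 95% interval -0.84 to 0.13) and the mannose receptor relative Mrc2 (-0.14, 95% interval -0.65 to 0.37). Intervals of this width do not show that a gene was unchanged.

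Genes that handle what these receptors deliver changed in both directions. In haemoglobin and heme handling, 1 of 11 rose and 1 fell, with a median of -0.11. By limma 6 of the 11 had an unadjusted p under 0.05, against 15.8% of all genes. Hp encodes haptoglobin, which Cd163 takes up when it is bound to haemoglobin. This gene had 11.82 and 11.92 with PBS and 12.57 and 12.77 with LPS and rose by 0.80 log2 (limma adjusted p = 0.00531). Slc40a1, the iron exporter ferroportin, fell from 11.65 and 11.62 to 9.97 and 9.53, and Hmox1, which breaks heme open, had a change of 0.19 that did not pass. In sterol and fatty acid handling, 1 of 12 rose and 1 fell, with a median of -0.08. These were Plin2, a lipid droplet coat gene (0.75), and Lipa, the lysosomal acid lipase gene (-0.78). The cholesterol exporter genes Abca1 (-0.27) and Abcg1 (0.07) did not pass. Of the 12 genes, 4 had an unadjusted p under 0.05 by limma.

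Among 12 transcription factors of macrophages, 3 rose and 1 fell, with a median of 0.12. By limma 6 of the 12 had an unadjusted p under 0.05, against 15.8% of all genes. Spic, a factor of iron-recycling macrophages, rose by 1.49 (9.16 and 9.44 with PBS, 10.88 and 10.70 with LPS; adjusted p = 0.000435), Nr1h3, the liver X receptor alpha gene, by 0.94 (adjusted p = 0.00195) and Cebpb by 0.45 (adjusted p = 0.0342). Cebpb did not pass without PBS replicate 1 (0.0609), LPS replicate 1 (0.147) or LPS replicate 2 (0.122), or with all probe sets in the fit (0.12). Pparg, a lipid-sensing nuclear receptor known as a regulator of Cd36, fell by 0.87 (9.94 and 10.10 with PBS, 9.13 and 9.16 with LPS; adjusted p = 0.00221). Maf (0.12) and Spi1, which encodes PU.1 (0.18), did not pass. Of 9 genes for receptor shedding and adaptors, 1 rose, the metalloproteinase inhibitor gene Timp3 (0.97, limma adjusted p = 0.00165), and 3 had an unadjusted p under 0.05. The sheddase genes Adam17 (0.25) and Adam10 (-0.20) did not pass.

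**Figure D4:**
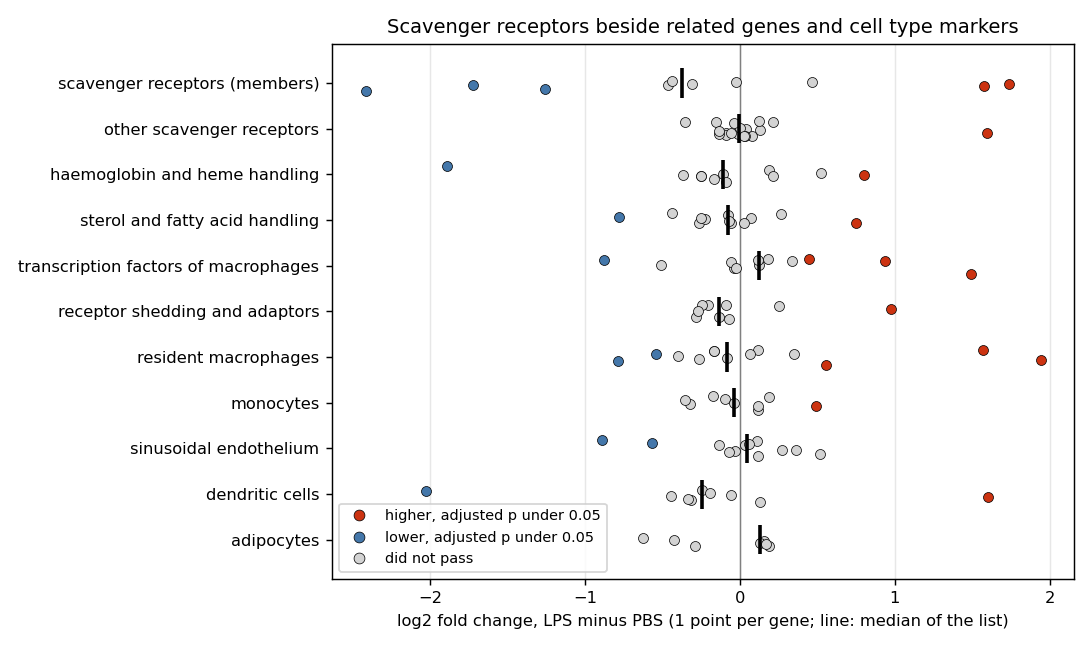
The log2 fold change of every measured gene (horizontal axis, LPS minus PBS, 1 point per gene) is shown for the receptor genes, the 5 related lists and 5 cell type lists (rows), red where it rose, blue where it fell, pale grey where it did not pass, with a black line at the list median. The 10 receptor genes run from -2.41 to 1.74, while 17 of 18 other scavenger receptors lie between -0.35 and 0.22.

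For the 5 changed receptors, the 3 genes with the most similar profile were sought by the Euclidean distance between log2 values over the 4 arrays. Each gene was first centred on its own mean. Left out of the search by name pattern were clone-named and predicted genes, immune receptor segments, olfactory and vomeronasal receptor genes, and small RNAs. The patterns also took out complement genes named by C and a number, and every gene whose symbol begins with Igh, Igk or Igl. Marco lay nearest to Cxcl16, at a distance of 0.0287, then to Serpina3b (0.0386) and Phf11c (0.0714). Msr1 lay nearest to the collagenase gene Mmp13 (0.179), Ms4a4d (0.225) and Tnfsf10 (0.245). Stab2 lay nearest to Thbd (0.0645), which encodes the endothelial anticoagulant receptor thrombomodulin, then to the lectin gene Cd209d (0.119) and Stxbp6 (0.135). Mrc1 lay nearest to Cmbl (0.13), Fcer2a (0.132) and the lectin gene Clec7a (0.206). Cd163 had no close neighbour among the genes searched, with Fmo2 at 0.415, Cd209a at 0.44 and Clec7a at 0.665. Over only 4 arrays, a short distance says that genes had a like size of change and like values within groups.

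Promoter sequence is shown for the receptors that changed, because the rising and falling genes can be set side by side there. RefSeq sequence of the 250 bases before the gene start (build GRCm38.p6) was found for 8 of the 10 genes, all but Msr1 and Scarb1. The windows are chr1:120505025-120505274 on the minus strand for Marco, which rose, and chr6:124304401-124304650 on the plus strand for Cd163, chr2:14229164-14229413 on the plus strand for Mrc1 and chr10:87007943-87008192 on the minus strand for Stab2, which fell. Each reads 5′ to 3′ on the strand of its gene, and capitals mark matches to any of 8 short motifs.
Marco: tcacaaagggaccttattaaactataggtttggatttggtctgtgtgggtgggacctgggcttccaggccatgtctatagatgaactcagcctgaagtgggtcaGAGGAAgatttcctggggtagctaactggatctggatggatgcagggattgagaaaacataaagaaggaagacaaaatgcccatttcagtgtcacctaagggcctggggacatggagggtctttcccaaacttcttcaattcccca
Cd163: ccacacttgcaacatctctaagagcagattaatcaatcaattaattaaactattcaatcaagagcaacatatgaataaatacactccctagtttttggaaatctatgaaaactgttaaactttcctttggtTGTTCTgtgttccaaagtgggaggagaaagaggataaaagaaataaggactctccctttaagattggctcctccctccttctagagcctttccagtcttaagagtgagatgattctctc
Mrc1: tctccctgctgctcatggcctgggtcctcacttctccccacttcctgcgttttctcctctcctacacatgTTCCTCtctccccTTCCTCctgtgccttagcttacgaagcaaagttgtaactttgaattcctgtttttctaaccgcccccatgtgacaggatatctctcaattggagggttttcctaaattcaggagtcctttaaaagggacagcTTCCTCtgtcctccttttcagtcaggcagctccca
Stab2: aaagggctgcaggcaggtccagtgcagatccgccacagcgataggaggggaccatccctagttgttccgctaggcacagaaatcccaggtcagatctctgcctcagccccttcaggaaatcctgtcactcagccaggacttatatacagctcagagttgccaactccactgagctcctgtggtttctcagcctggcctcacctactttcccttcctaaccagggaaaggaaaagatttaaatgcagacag

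The motifs were GAGGAA (the core bound by PU.1 and other ETS factors), GGGANTTTC (NF-kappaB type), GAAANNGAA (interferon response element type), TTCNNNGAA (STAT type), TGANTCA (AP-1), TTGCNNAA (C/EBP type), TGCTGA (MAF type) and TGTTCT (glucocorticoid receptor type), searched on both strands. The PU.1 core was in 5 of the 8 windows, those of Marco, Mrc1, Cd68, Stab1 and Cd5l, against 23.3% of all 32851 windows of this length. Mrc1 held it 3 times, each on the opposite strand as TTCCTC, and Marco held it 1 time. Thus a gene that rose and a gene that fell both carried it. Cd163 held the glucocorticoid receptor type motif 1 time, 119 to 114 bases before the start, a motif in 16.1% of all windows, and Stab2 held none of the 8. The MAF type motif was in 3 windows (Cd36, Cd5l and Stab1; 16.1% of all), and AP-1 (6.75% of all) and C/EBP type (9.56% of all) motifs were in that of Cd68 alone. The NF-kappaB, interferon and STAT types were in 0 of the 8 windows and in 0.941%, 7.13% and 7.02% of all, which says only that these letters were not in these windows. No match overlapped another.

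The calls rest on limma's moderated spread. A linear model with no moderation called 0 of the 10 receptor genes and 0 of all genes, with 6 receptor genes and 2185 genes at an unadjusted p under 0.05. In every other alternative, leaving out each array included, Msr1, Marco, Cd163, Mrc1 and Stab2 passed in the same direction, with adjusted p-values of at most 0.0223.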

How the data were processed

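The authors deposited log2 expression values per probe set made with RMA, per the submitters' processing notes; the RMA version was not given in the sources used here, and the log2 scale was read from the values (2.76 to 14.5). RMA equalises the distribution of values across arrays, so a shift common to most genes would not show. No further correction was applied. Of 35556 probe sets, 21789 had 1 gene symbol in the platform annotation, and the brightest stood for each of 19938 genes. LPS was compared with PBS over all genes by limma 3.58.1 (R 4.3.3; eBayes after lmFit, two-sided, 4 arrays, no covariate, Benjamini-Hochberg adjustment, 2 residual and 5.59 prior degrees of freedom). The fit was also run on simulated data drawn from limma's own variance model, which cannot show whether that model holds for these arrays. Figures used matplotlib 3.10.9. The receptors, 5 related lists and 10 cell type lists were chosen with earlier results of these data known, so lists have counts and medians and no test. Besides the receptors, the text names up to 3 rising and 3 falling genes of each list, the 2 brightest of a list where none passed, and the nearest 3 genes of each changed receptor; other list genes given with values were chosen after these were seen. For arrays, their number limits the precision. Alternatives covered probe sets, variance model, low values, scaling, threshold and each array left out.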

Additional observations from a re-analysis of the deposited data

How the results depend on the processing

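Over all genes, 476 rose and 254 fell. With every probe set in the fit 63 fell, at an adjusted p under 0.01 286 rose and 58 fell, and with each array left out in turn 127 to 423 fell and 385 to 696 rose. The linear model with no moderation called 0 genes in either direction, so 0 receptors and 0 genes of the 5 related lists. In that model 19 of the 62 genes of these lists had an unadjusted p under 0.05, against 2185 of all 19938 genes. With each array left out, 2 to 3 receptors rose and 3 to 4 fell, the additions being Stab1, Cd36 and Cd5l, and 4 to 5 genes of the related lists fell in place of 3. Of 110 receptor results under an alternative, 97 stayed on their side of the threshold in the same direction. The 5 that no longer passed were all under no moderation, and 7 passed only under the alternative. Part of the agreement was fixed in advance. Each receptor had 1 probe set, so averaging probe sets left its change as it was. The threshold of 0.01 reused the main fit, where a receptor that did not pass at 0.05 could not pass. The change of Cd68 ran from -0.076 to 0.025 with each array left out, turning positive without LPS replicate 1. Msr1 minus Cd163 shifted by 3.86 to 4.44 with each array left out. No paired analysis was made, because the labels give no pairing of PBS with LPS arrays. Replicate number 1 occurs in both groups, but the labels do not link those 2 arrays. The LPS arrays of Cd5l differed by 0.60, more than its change of -0.44, and values below the lower quartile of genes carry no measured background level.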
